A study of Mus musculus with 24 samples.

Results

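Complex I, the NADH:ubiquinone oxidoreductase of the inner mitochondrial membrane, was described through 43 nuclear genes of 19938 mouse genes measured. The members were all genes with a probe set that the platform annotation gives exactly 1 symbol, beginning with Ndufa, Ndufb, Ndufc, Ndufs or Ndufv. The probe set with the highest mean over the 24 arrays stood for each gene, and 5 members (Ndufa11, Ndufab1, Ndufb11, Ndufc1 and Ndufs3) had a further one. Another 3 probe sets, annotated to Ndufs5 with a pseudogene or to Ndufb4 with Ndufb4b, were left out because they name several genes. Ndufb1, Ndufb4 and Ndufaf8 were not analysed here. By role, the members comprised 3 core subunits of the NADH-oxidising module, 3 core subunits of the quinone-reducing module, 9 accessory subunits of the peripheral arm, the acyl carrier protein Ndufab1, 18 accessory subunits of the membrane arm, 7 assembly factors (Ndufaf1 to Ndufaf7), and Ndufa4 with its relative Ndufa4l2.

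The study compared mouse macrophages with cell lines of the female reproductive tract, at rest and in a milieu made to resemble genital Chlamydia infection. The macrophages were raised from femur marrow of C57BL/6 mice with GM-CSF, a myeloid growth factor. The line C57epi.1 came from the upper reproductive tract of the same strain, and the line Bm12.4 came from the strain B6(C)-H2-Ab1bm12/KhEgJ, which carries a mutant MHC class II beta chain. Each kind of cell received either RPMI medium alone, called media here, or inflammatory supernatant. The supernatant was medium conditioned by a CD4 T cell clone specific for Chlamydia on an infected epithelial monolayer, used at 33% (v/v) and brought to 4 ng/ml of interferon gamma. The 6 groups held 4 arrays each, and each array was labelled from 100 ng of total RNA. The labels do not say whether replicates came from separate cultures or animals, so p-values measure the spread between these arrays, which may be technical. Each line is a single isolate, so a difference between the lines cannot be told apart from a difference between strains, and in all groups fewer cells of a kind cannot be told apart from less RNA per cell.

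Complex I takes electrons from NADH, passes them through flavin and iron-sulfur clusters to ubiquinone, and pumps protons out of the mitochondrial matrix. Its peripheral arm holds the electron path and its membrane arm holds the pump, whose core subunits are encoded by mitochondrial DNA. Accessory subunits surround this core, and assembly factors help to build the enzyme without staying in it. Activated macrophages are known to lower mitochondrial respiration when they make nitric oxide.

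The labels were first set against marker genes, on the log2 scale of the deposited RMA values. Over 11 macrophage markers measured of 12 listed, the mean level per array lay between 4.14 and 4.46 in the lines and between 11.56 and 11.92 in macrophages. Over 6 T cell markers it lay between 3.78 and 4.26 in every group. Dendritic cell markers averaged 6.75 to 7.28 in macrophages and 4.16 to 4.50 in the lines, and neutrophil markers 3.42 to 4.96 everywhere. The dendritic markers were split: in media, lines minus macrophages gave -8.10 for Itgax, -4.80 for Clec9a and -3.10 for Ccr7. Flt3 (-0.18), Zbtb46 (0.28) and Xcr1 (0.05) were not called. The epithelial label was matched only in part. Krt19, a simple-epithelium keratin, averaged 11.31 to 12.12 in the lines and 4.13 to 4.32 in macrophages. By contrast, the epithelial adhesion gene Epcam averaged 3.67 to 3.79 in all 6 groups. Cdh1 averaged 4.30 to 4.50 in the lines, lower than in macrophages, with differences of -2.23 in media and -2.91 in supernatant. In media, Krt8 (2.08) and Krt7 (0.68) were called higher in the lines, and Krt8 was higher in C57epi.1 than in Bm12.4 by 3.58. Krt18, Cldn3, Cldn4 and Cldn7 were not called between lines and macrophages in media. Mean levels of 9 stromal markers were 9.41 to 10.75 in the lines and 6.26 to 6.74 in macrophages. The supernatant was active in each kind of cell: Irf1, an interferon-induced transcription factor, rose in C57epi.1, Bm12.4 and macrophages by 3.55, 2.41 and 3.87 (log2), and Nos2, the inducible nitric oxide synthase, by 4.91, 2.50 and 5.60. Replicates 3 and 4 of both lines in media stood apart from replicates 1 and 2. The median of 32 cell cycle genes differed there by -1.04 (log2) for C57epi.1 and by -2.41 for Bm12.4, against -0.18 and -0.67 in supernatant. Some of the results that move with this split are also given below within each pair of replicates, and the others over all arrays only.

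The median of the 43 members per array lay between 8.79 and 9.19 (log2) over all 12 arrays in media and between 8.55 and 8.92 over all 12 in supernatant. The span of a member between its highest and its lowest group mean had a median of 0.75 (log2, range 0.28 to 2.94), against 0.64 over all genes and 1.14 over the 11574 genes with a mean of at least 5. A span of at least 1 was reached by 11 members (25.6%), against 36.5% of all genes and 56.8% of the genes with a mean of at least 5. The widest spans were those of Ndufa4 (2.94), Ndufaf7 (2.11), Ndufb9 (1.76), Ndufa1 (1.59) and Ndufaf4 (1.52). Only Ndufa7, Ndufs8, Ndufc1, Ndufc2 and Ndufa4l2 were called in none of the 9 comparisons made, at an adjusted p under 0.05 in limma with Benjamini-Hochberg adjustment over all genes.

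**Figure D1:**
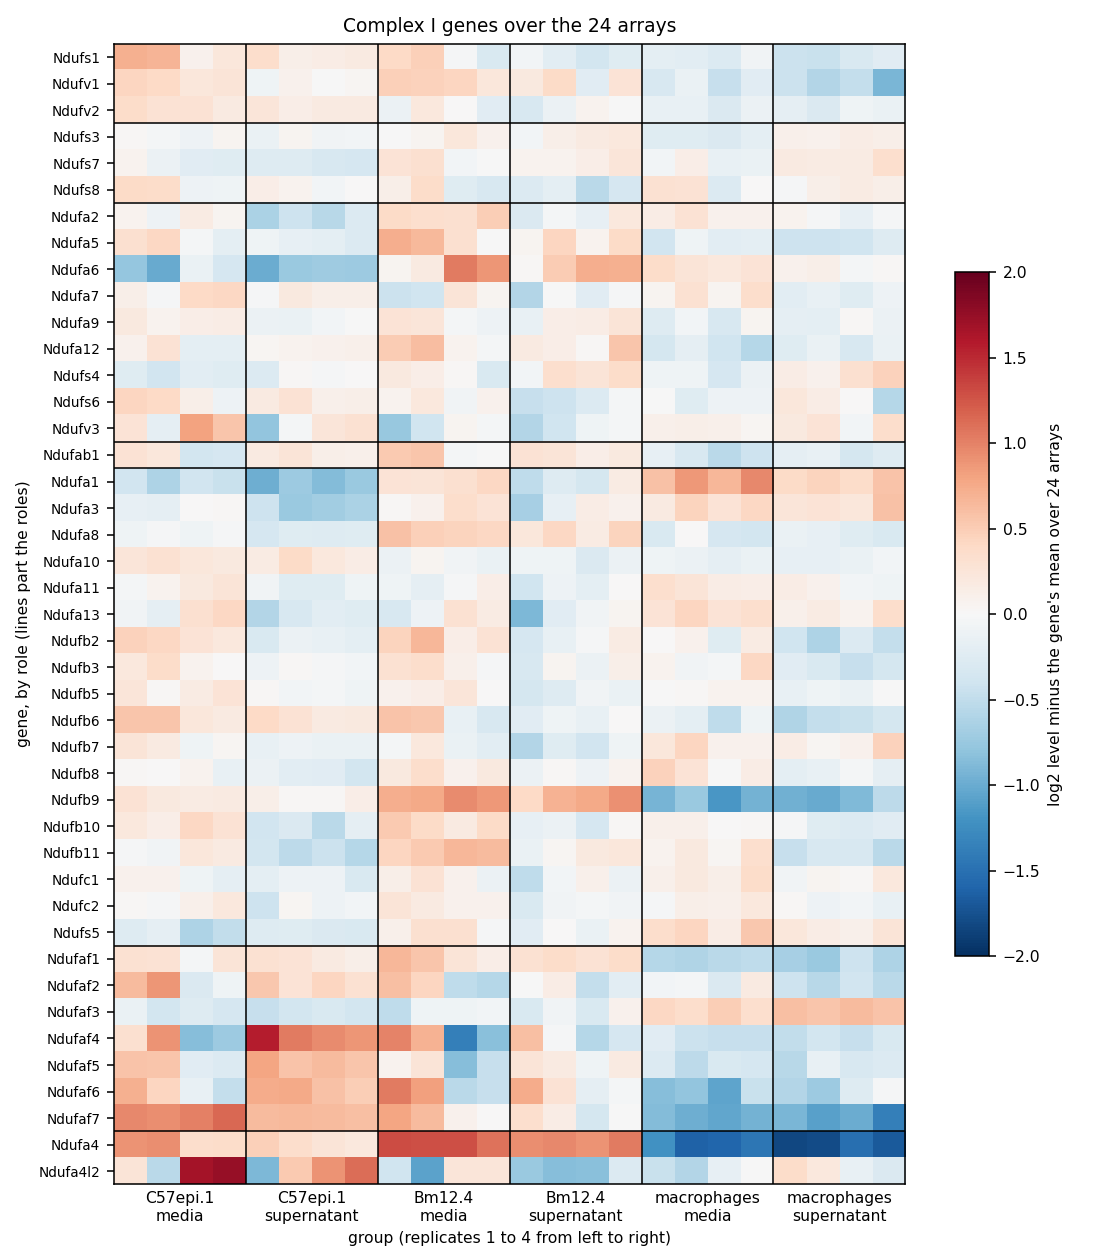
Level of each of the 43 complex I genes (rows, ordered by role) on each of the 24 arrays (columns, by group), as the log2 value minus the mean of that gene over all arrays, on a colour scale from -2 to 2. Most rows are pale, while Ndufa4, Ndufaf7 and Ndufb9 separate both lines from macrophages and several assembly factors separate replicates 1 and 2 from replicates 3 and 4 of the lines in media.

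The first question was how each kind of cell responded to the supernatant. In C57epi.1, 8 members fell and 1 rose. In Bm12.4, 6 fell and none rose, and in macrophages 4 fell and 2 rose. Of all genes, 10.4% were called lower and 8.85% higher in C57epi.1, 2.70% and 4.54% in Bm12.4, and 6.31% and 6.13% in macrophages. Every array in supernatant lay below every array in media for 15 members in C57epi.1 (11.4% of all genes), for 8 in Bm12.4 (5.15%) and for 11 in macrophages (11.3%). The opposite order held for 0, 0 and 4 members, against 9.20%, 5.18% and 9.33% of all genes. The median log2 difference of the members was -0.210, -0.235 and -0.132 in C57epi.1, Bm12.4 and macrophages, beside -0.045, -0.050 and -0.018 over all genes. Of the 43 members, 21 lay below 0 in all 3 kinds of cell and 2, Ndufaf5 and Ndufs4, above 0 in all 3. The same counts were not made over all genes, so these have no baseline. With each array centred on its median the C57epi.1 counts became 0 higher and 5 lower, and with quantile normalization 1 higher and 16 lower. In macrophages the same alternatives gave 2 higher and 1 lower, and 1 higher and 5 lower. The counts also differed between the replicate pairs. Within replicates 1 and 2, 1 member was called higher and 7 lower in C57epi.1 (median -0.205). Bm12.4 had 0 and 17 (median -0.355), and macrophages 1 and 5 (median -0.150). Of all 19938 genes in those fits, 1492 were called higher and 1488 lower in C57epi.1 (median -0.040). The all-gene counts were 1396 and 1019 in Bm12.4 (median -0.035), and 1220 and 1659 in macrophages (median -0.015). Within replicates 3 and 4, 5 members were called higher and 9 lower in C57epi.1 (median -0.105). Bm12.4 had 3 and 2 (median -0.125), and macrophages 4 and 2 (median -0.090). Of all 19938 genes, 2663 were called higher and 2969 lower there in C57epi.1 (median -0.050). The all-gene counts were 1532 and 1342 in Bm12.4 (median -0.065), and 1318 and 1225 in macrophages (median -0.025).

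The falls lay mostly in the membrane arm. Of its 18 accessory subunits, 7 fell in C57epi.1, 5 fell in Bm12.4 and 4 fell in macrophages, and none rose. Their median log2 differences were -0.219, -0.273 and -0.176, and 17, 18 and 14 of the 18 values lay below 0. Among the 9 accessory subunits of the peripheral arm, Ndufa2 fell in both lines and Ndufs4 rose in macrophages. The 6 core subunits of both modules had 1 call, the rise of Ndufs3 in macrophages, and the 7 assembly factors had 1, the rise of Ndufaf4 in C57epi.1.

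**Figure D2:**
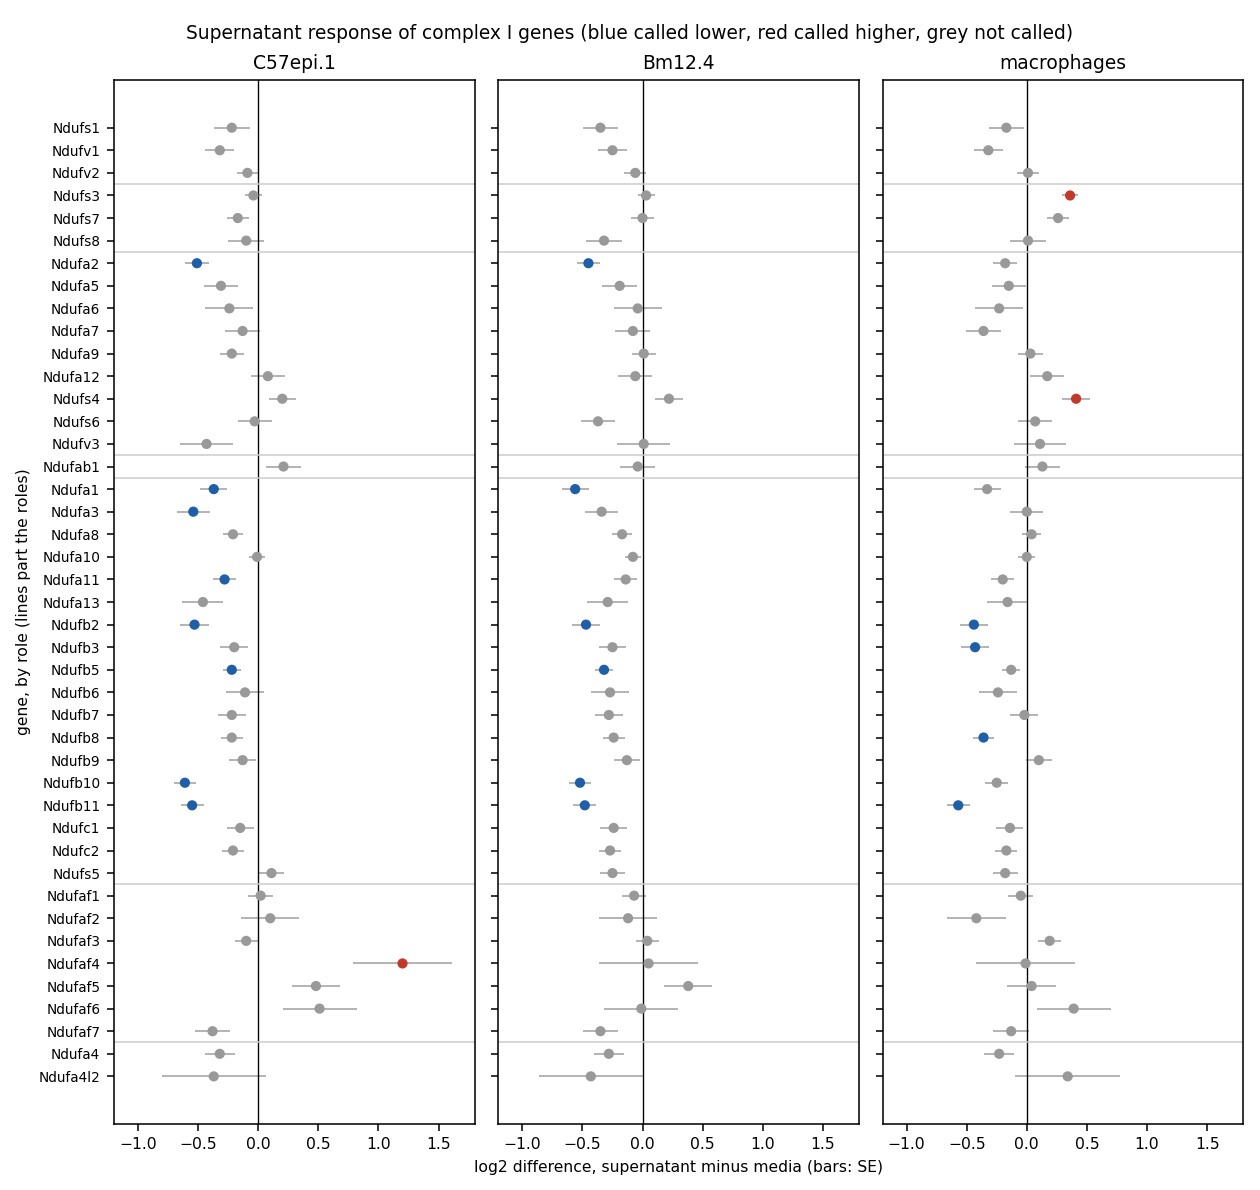
Log2 difference between inflammatory supernatant and media for each complex I gene (point, with its standard error from limma) in C57epi.1, Bm12.4 and macrophages, ordered by role, with 4 arrays in each group. Membrane-arm subunits lie mostly to the left of 0 in all 3 panels, with Ndufb11 at -0.55, -0.48 and -0.57.

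Ndufb11, a small X-linked subunit of the membrane arm, fell in all 3 kinds of cell. It read 9.72, 9.66, 9.96 and 9.91 in C57epi.1 in media and 9.37, 9.21, 9.30 and 9.17 in supernatant. In Bm12.4 the media arrays read 10.17, 10.26, 10.40 and 10.37 and the supernatant arrays 9.60, 9.77, 9.93 and 9.97. In macrophages they read 9.81, 9.93, 9.78 and 10.08 and then 9.28, 9.42, 9.42 and 9.19. Every array in supernatant was below every array in media of the same cells. The log2 differences were -0.55, -0.48 and -0.57 (SE 0.096 each, n = 4 against 4), or 1.46-fold, 1.4-fold and 1.49-fold lower, with limma adjusted p of 0.000218, 0.00175 and 0.000155. Its second probe set gave -0.68, -0.39 and -0.61.

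Ndufb2, another small membrane-arm subunit, also fell in all 3. It read 6.66, 6.61, 6.48 and 6.41 in C57epi.1 in media and 5.90, 6.08, 6.05 and 6.00 in supernatant. Bm12.4 read 6.65, 6.86, 6.33 and 6.49 in media and 5.86, 6.05, 6.18 and 6.36 in supernatant, and macrophages 6.21, 6.29, 5.96 and 6.36 and then 5.81, 5.59, 5.93 and 5.72. The groups were separate in C57epi.1 and macrophages and overlapped in Bm12.4, where supernatant replicate 4 (6.36) exceeded media replicate 3 (6.33). The differences were -0.53, -0.47 and -0.44 (SE 0.118 each), with limma adjusted p of 0.0021, 0.0129 and 0.0127. The call was lost in Bm12.4 without media replicate 2 or supernatant replicate 1 (adjusted p up to 0.0609), and in macrophages without media replicate 4 or supernatant replicate 2 (up to 0.0573). With arrays centred on their median, the adjusted p was 0.0509 in Bm12.4 and 0.0615 in macrophages. Within replicates 1 and 2 the Bm12.4 difference was -0.80, and within replicates 3 and 4 it was -0.14.

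A further 4 members fell in both lines without a call in macrophages. Ndufb10, an intermembrane-space subunit of the pump arm, read 7.19, 7.12, 7.39 and 7.27 in C57epi.1 in media and 6.60, 6.70, 6.44 and 6.80 in supernatant. In Bm12.4 it read 7.50, 7.37, 7.16 and 7.36, then 6.82, 6.86, 6.64 and 7.01. No array overlapped, and the differences were -0.61 and -0.52 (SE 0.094 each, limma adjusted p of 5.59e-05 and 0.000722). In macrophages, the arrays were 7.08, 7.08, 6.99 and 7.01 in media and 6.96, 6.74, 6.71 and 6.76 in supernatant, also without overlap, with a difference of -0.25 that was not called.

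Ndufa2, an accessory subunit with a thioredoxin-like fold in the peripheral arm, read 9.10, 8.93, 9.19 and 9.08 in C57epi.1 in media and 8.40, 8.62, 8.47 and 8.76 in supernatant. In Bm12.4 it read 9.41, 9.37, 9.35 and 9.52, then 8.74, 9.0, 8.87 and 9.24. The groups were separate in both lines, with differences of -0.51 and -0.45 (SE 0.099 each, limma adjusted p of 0.000584 and 0.00433). Ndufa1, an X-linked single-pass subunit of the membrane arm, read 7.97, 7.74, 7.96 and 7.91 in C57epi.1 in media and 7.37, 7.63, 7.49 and 7.61 in supernatant. In Bm12.4 it read 8.63, 8.61, 8.67 and 8.76, then 7.84, 8.09, 8.0 and 8.51. All arrays of both lines were lower in supernatant than in media. The Bm12.4 difference was -0.56 (SE 0.113, adjusted p = 0.00206), and the C57epi.1 difference was -0.37 (adjusted p = 0.0229). The C57epi.1 call was lost in 5 of the 24 fits that leave out an array: supernatant replicate 1 or 3, or media replicate 1, 3 or 4 (adjusted p up to 0.0821). A fit on the Bm12.4 arrays alone gave adjusted p of 0.0684 for Ndufa1, 0.0754 for Ndufa2 and 0.145 for Ndufb2 in that line. Ndufb5, a membrane-arm subunit, differed by -0.22 in C57epi.1 and by -0.32 in Bm12.4, with 1 overlapping group pair, that of C57epi.1, whose call was lost in 6 such fits (adjusted p up to 0.134).

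Other falls were called in a single kind of cell. In C57epi.1, Ndufa3 went from 8.98, 8.96, 9.14 and 9.17 in media to 8.72, 8.39, 8.45 and 8.51 in supernatant, without overlap, a difference of -0.54 (SE 0.136, limma adjusted p = 0.00578). Ndufa11 differed by -0.28 there and lost its call without supernatant replicate 2 or 3 or media replicate 3 or 4 (adjusted p up to 0.145). In macrophages, Ndufb3 went from 6.88, 6.75, 6.78 and 7.23 to 6.59, 6.51, 6.35 and 6.46, a difference of -0.43 (adjusted p = 0.0122). Ndufb8 went from 9.36, 9.17, 8.89 and 9.05 to 8.71, 8.75, 8.86 and 8.72, a difference of -0.36 (adjusted p = 0.00893). The macrophage groups did not overlap for either gene. Without media replicate 4 the adjusted p of Ndufb3 was 0.0672, and with centred arrays it was 0.0505 for Ndufb3 and 0.0602 for Ndufb8. That these genes were called in 1 kind of cell does not show that the responses differed, as the tests of a difference in response gave none of them a call over all arrays.

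**Figure D3:**
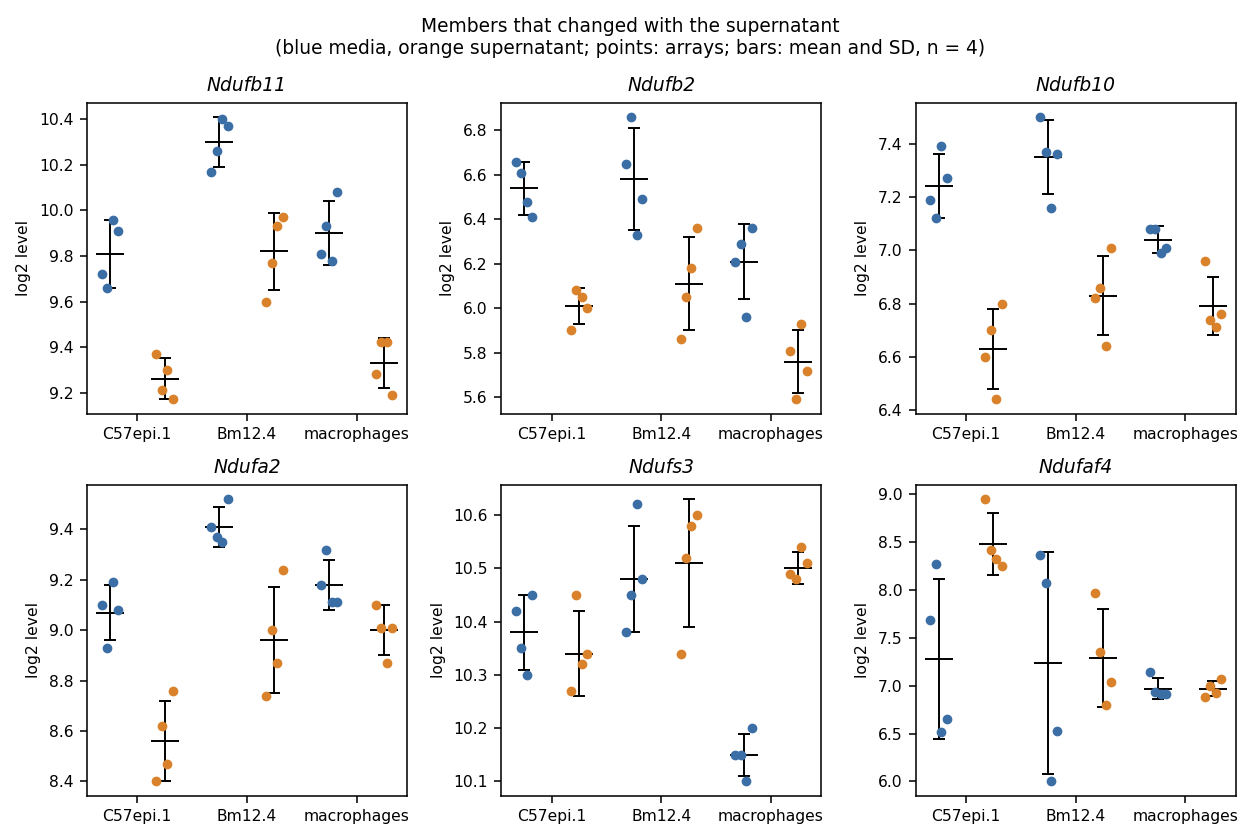
Log2 level of Ndufb11, Ndufb2, Ndufb10, Ndufa2, Ndufs3 and Ndufaf4 on each array (points) in media and in inflammatory supernatant for the 3 kinds of cell, with the mean and SD of 4 arrays. Ndufb11 is lower in supernatant on every array of each kind of cell, and Ndufs3 is higher on every macrophage array, from 10.48 to 10.54 against 10.10 to 10.20 in media.

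The rises were fewer. Ndufs3, a core subunit of the quinone module, read 10.15, 10.15, 10.10 and 10.20 in macrophages in media and 10.49, 10.48, 10.54 and 10.51 in supernatant. The arrays of both macrophage groups were tightly grouped and did not overlap, and the difference was 0.36 (SE 0.070, limma adjusted p = 0.000876). In C57epi.1 it read 10.42, 10.35, 10.30 and 10.45 and then 10.27, 10.45, 10.32 and 10.34, a difference of -0.04. Bm12.4 read 10.38, 10.45, 10.62 and 10.48 and then 10.34, 10.52, 10.58 and 10.60, a difference of 0.03. The second probe set of Ndufs3 gave -0.01, 0.00 and 0.31.

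The response of Ndufs3 differed between the lines and macrophages. The mean response of the lines minus that of macrophages was -0.36 (SE 0.085, limma adjusted p = 0.00852), the only call among the 43 members in that comparison, where 3.81% of all genes were called lower and 4.27% higher. It was -0.34 within replicates 1 and 2 (adjusted p = 0.0985) and -0.38 within replicates 3 and 4 (adjusted p = 0.0516). Within replicates 3 and 4 a call was instead made for Ndufaf2 (0.78), Ndufaf4 (1.09), Ndufaf5 (0.75) and Ndufb3 (0.54), each above 0. Of all 19938 genes, 1534 were called higher and 1462 lower in that fit. All 32 cell cycle genes were called higher in it, and their part in these 4 calls was not tested. Counts of calls were 2 with quantile normalization, 2 without Bm12.4 media replicate 3 or 4, and 3 without macrophages media replicate 2. Between the responses of C57epi.1 and Bm12.4, limma called 0 members, against 1.99% of all genes higher and 2.04% lower, and only Ndufs5 had an unadjusted p under 0.05. Within replicates 1 and 2, and within replicates 3 and 4, it called Ndufaf4 (1.26 and 1.05). Of all 19938 genes, those fits called 399 higher and 490 lower, and 1013 higher and 1029 lower.

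Ndufs4, an accessory subunit whose loss impairs complex I assembly, read 9.48, 9.47, 9.22 and 9.45 in macrophages in media and 9.71, 9.64, 9.88 and 10.02 in supernatant. The groups did not overlap, and the difference was 0.41 (SE 0.114, limma adjusted p = 0.0178). The call was lost with quantile normalization (0.32, adjusted p = 0.0577) and without supernatant replicate 4 or media replicate 3 (adjusted p up to 0.0766).

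Ndufaf4, a factor that acts with Ndufaf3 early in assembly, gave the largest treatment difference of any member. It read 7.69, 8.27, 6.52 and 6.65 in C57epi.1 in media and 8.95, 8.42, 8.32 and 8.25 in supernatant. Media replicate 2 (8.27) exceeded supernatant replicate 4 (8.25), so the groups overlapped. The difference was 1.20 (SE 0.413, 2.3-fold higher, limma adjusted p = 0.0438). It was 0.70 within replicates 1 and 2 (adjusted p = 0.0326) and 1.70 within replicates 3 and 4 (adjusted p = 4.76e-06). The call was lost in 16 of the 24 fits that leave out an array, with an adjusted p up to 0.167, with centred arrays (1.25, adjusted p = 0.0521) and in a fit on the C57epi.1 arrays alone (adjusted p = 0.0559). Those 16 fits left out any C57epi.1 supernatant array, any macrophage array, C57epi.1 media replicate 3 or 4, or Bm12.4 supernatant replicate 2 or 4. In Bm12.4 it read 8.37, 8.07, 6.00 and 6.53 in media and 7.97, 7.35, 6.80 and 7.04 in supernatant, a difference of 0.05 that was -0.56 within replicates 1 and 2 and 0.66 within replicates 3 and 4. Macrophage arrays lay between 6.88 and 7.14 in both conditions.

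The second question was how the lines differed from macrophages. In media, 18 members were higher in the lines and 3 lower, and in supernatant 20 were higher and 8 lower. Of all genes, 24.7% were called higher and 22.4% lower in media, and 24.3% and 24.4% in supernatant. The median log2 difference of the members was 0.218 in media and 0.118 in supernatant, against 0.005 and -0.033 over all genes. All line arrays lay above all macrophage arrays for 7 members in media (13.5% of all genes) and 9 in supernatant (16.3%), and below them for 2 (15.4%) and 6 (16.9%). The media and supernatant comparisons used different arrays but shared an estimate of the spread made over the 24 arrays. They had in common 15 higher members (83.3% of those in media, 75% of those in supernatant). Of the lower members they had 3 in common, Ndufa1, Ndufaf3 and Ndufs5 (100% and 37.5%), and no member was called in opposite directions. The same shares were not made over all genes.

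Sequences just upstream of the transcription start are shown for 6 of the members with the largest called differences. Ndufb9 and Ndufaf6 were not in the promoter table. Each run is the 250 bases before the start that the RefSeq promoter table uses (GRCm38.p6), 5′ to 3′ on the strand of the gene. For Ndufaf7 and Ndufaf1 that start lies inside the span RefSeq lists for the gene, so these runs reach a short way into it. Ndufa4 lies at chr6:11907451-11907700 (minus strand), Ndufaf7 at chr17:78936885-78937134 (plus), Ndufa6 at chr15:82354292-82354541 (minus), Ndufaf4 at chr4:24897833-24898082 (plus), Ndufa1 at chrX:37191239-37191488 (minus) and Ndufaf1 at chr2:119662835-119663084 (minus). Capitals mark exact matches on either strand to a letter string of factors known for respiratory genes.
Ndufa4: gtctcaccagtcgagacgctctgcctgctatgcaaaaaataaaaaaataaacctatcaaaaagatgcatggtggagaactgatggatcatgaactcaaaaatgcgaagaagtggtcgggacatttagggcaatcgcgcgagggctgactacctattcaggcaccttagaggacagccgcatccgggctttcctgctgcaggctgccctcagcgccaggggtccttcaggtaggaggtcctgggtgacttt
Ndufaf7: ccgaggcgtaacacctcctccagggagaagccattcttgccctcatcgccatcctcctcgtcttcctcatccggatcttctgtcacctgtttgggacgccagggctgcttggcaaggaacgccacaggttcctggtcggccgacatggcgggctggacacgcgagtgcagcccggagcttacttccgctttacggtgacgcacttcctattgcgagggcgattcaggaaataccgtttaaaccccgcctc
Ndufa6: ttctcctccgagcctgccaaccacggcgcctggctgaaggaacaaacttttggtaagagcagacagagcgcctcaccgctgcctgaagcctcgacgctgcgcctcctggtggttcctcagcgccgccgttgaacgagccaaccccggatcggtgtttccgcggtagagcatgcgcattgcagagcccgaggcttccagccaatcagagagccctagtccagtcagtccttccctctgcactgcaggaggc
Ndufaf4: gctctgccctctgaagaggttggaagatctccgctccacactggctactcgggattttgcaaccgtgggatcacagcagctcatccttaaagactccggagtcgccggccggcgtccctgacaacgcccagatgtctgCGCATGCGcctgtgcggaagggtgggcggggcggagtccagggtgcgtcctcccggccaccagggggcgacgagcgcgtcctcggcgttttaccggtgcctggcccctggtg
Ndufa1: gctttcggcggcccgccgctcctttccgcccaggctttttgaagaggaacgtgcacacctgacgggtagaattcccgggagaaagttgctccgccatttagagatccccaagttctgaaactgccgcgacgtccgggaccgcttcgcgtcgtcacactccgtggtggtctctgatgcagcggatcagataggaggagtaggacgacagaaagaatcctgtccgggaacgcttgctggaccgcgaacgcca
Ndufaf1: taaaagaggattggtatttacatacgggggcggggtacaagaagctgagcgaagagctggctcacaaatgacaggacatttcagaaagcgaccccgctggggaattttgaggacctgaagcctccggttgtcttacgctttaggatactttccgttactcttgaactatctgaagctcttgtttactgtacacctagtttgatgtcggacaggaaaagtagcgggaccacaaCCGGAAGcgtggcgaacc
The strings searched were CGCATGCG for NRF1, CCGGAAG for ETS factors and AAGATGGC for YY1. The NRF1 string was found once in the Ndufaf4 run, starting 112 bases before the start, and the ETS string once in the Ndufaf1 run, starting 18 bases before it. Over the 38 members with a RefSeq promoter, 3 held the NRF1 string (Ndufa11, Ndufa8 and Ndufaf4), 4 the ETS string (Ndufaf1, Ndufb6, Ndufb7 and Ndufs3) and 0 the YY1 string. Among 27025 promoters of the same length, the shares were 1.58%, 7.05% and 1.59%.

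Ndufa4, first described in complex I and now assigned to cytochrome c oxidase, separated the lines from macrophages most. It read 11.50, 11.53, 10.95 and 10.96 in C57epi.1 in media, 11.90, 11.89, 11.88 and 11.68 in Bm12.4 and 9.38, 8.98, 9.01 and 9.15 in macrophages. In supernatant the values were 11.07, 10.94, 10.86 and 10.80, then 11.53, 11.55, 11.50 and 11.64, and 8.77, 8.81, 9.09 and 8.91. No line array came within the macrophage range in either condition. The lines were higher by 2.41 in media (SE 0.107, 5.3-fold, limma adjusted p = 4.26e-15) and by 2.34 in supernatant (5.07-fold, adjusted p = 7.26e-15). In response to supernatant, Ndufa4 differed by -0.32, -0.28 and -0.23 in C57epi.1, Bm12.4 and macrophages without a call (adjusted p of 0.0793, 0.217 and 0.286).

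Ndufaf7, a mitochondrial methyltransferase needed for complex I assembly, read 8.99, 8.95, 9.03 and 9.17 in C57epi.1 in media and 8.81, 8.65, 8.11 and 8.03 in Bm12.4. Macrophages read 7.15, 7.04, 6.98 and 7.08, below every line array. The lines were higher by 1.66 (SE 0.129, 3.15-fold, limma adjusted p = 1.5e-10), and by 1.42 in supernatant (adjusted p = 2.14e-09). Ndufb9, a membrane-arm subunit with an LYR motif that binds the acyl carrier protein, read 9.69, 9.59, 9.56 and 9.58 in C57epi.1, 10.12, 10.15, 10.34 and 10.26 in Bm12.4 and 8.47, 8.66, 8.24 and 8.45 in macrophages. The line arrays were again above all macrophage arrays, by 1.46 on average in media (SE 0.095, 2.74-fold, adjusted p = 5.82e-12) and by 1.22 in supernatant (adjusted p = 1.33e-10).

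**Figure D4:**
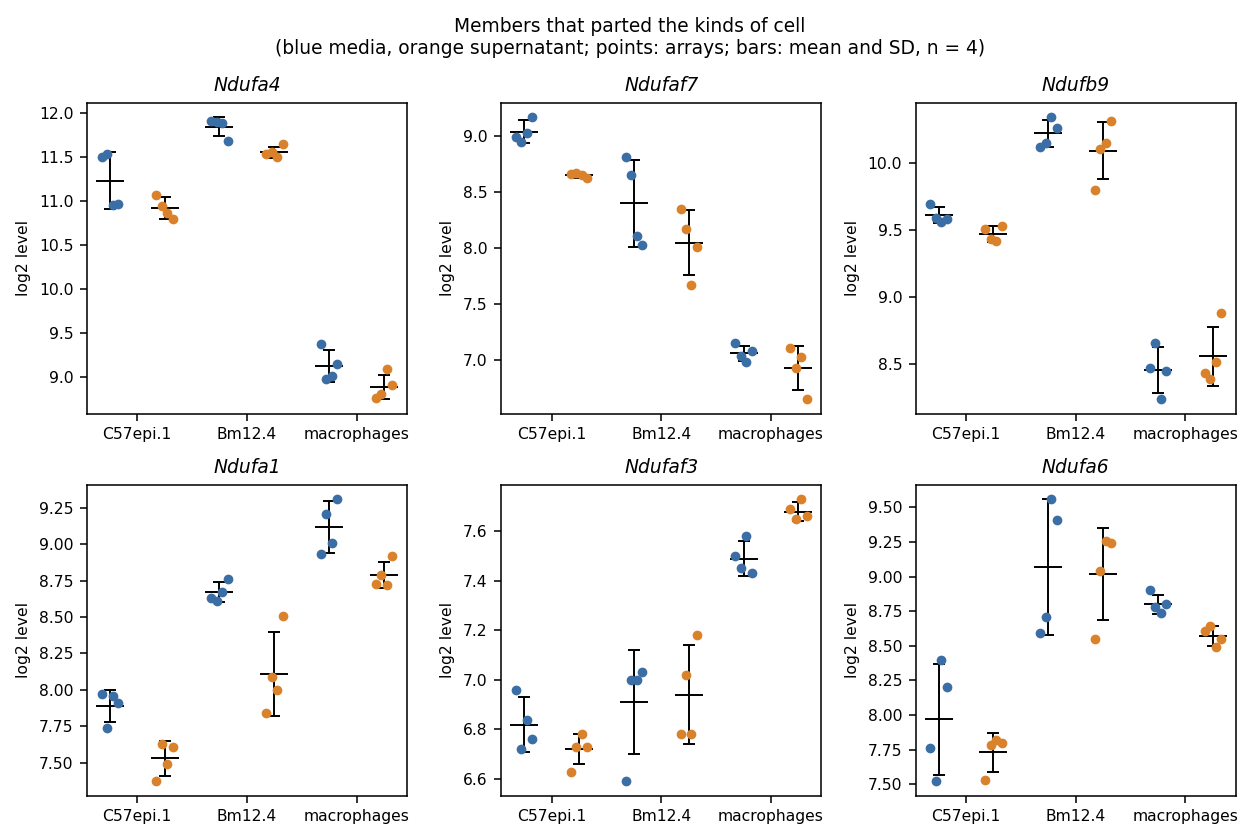
Log2 level of Ndufa4, Ndufaf7, Ndufb9, Ndufa1, Ndufaf3 and Ndufa6 on each array (points) in the 6 groups, with the mean and SD of 4 arrays. Ndufa4, Ndufaf7 and Ndufb9 are higher in both lines than in macrophages, Ndufa1 and Ndufaf3 are higher in macrophages, and Ndufa6 is lower in C57epi.1 than in Bm12.4.

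In the other direction, Ndufa1 was lower in the lines. Macrophages read 8.93, 9.21, 9.01 and 9.31 in media and 8.73, 8.79, 8.72 and 8.92 in supernatant, above every line array of the same condition. The differences were -0.83 in media (SE 0.098, 1.78-fold, limma adjusted p = 1.41e-07) and -0.97 in supernatant (1.96-fold, adjusted p = 1.16e-08). Ndufaf3, the partner of Ndufaf4 in early assembly, read 7.50, 7.45, 7.58 and 7.43 in macrophages in media, against 6.96, 6.72, 6.84 and 6.76 in C57epi.1 and 6.59, 7.0, 7.0 and 7.03 in Bm12.4. No arrays overlapped, and the lines were lower by a log2 difference of -0.63 (SE 0.084, adjusted p = 1.09e-06), and of -0.85 in supernatant (adjusted p = 8.42e-09). Ndufs5, an intermembrane-space subunit, was lower in the lines by -0.47 in media (adjusted p = 0.000118, with overlapping arrays) and -0.35 in supernatant (adjusted p = 0.00201).

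By role, all 3 core subunits of the NADH module were higher in the lines in both conditions. Ndufv1, which binds NADH and the flavin, was higher by 0.64 in media and 0.68 in supernatant (limma adjusted p of 1.18e-05 and 5.23e-06). The iron-sulfur subunit Ndufs1 was higher by 0.47 and 0.35 (adjusted p of 0.00363 and 0.0285). Within replicates 1 and 2 alone Ndufs1 was higher by 0.77 in media and 0.49 in supernatant (limma adjusted p of 1.47e-06 and 0.00031), and within replicates 3 and 4 its differences were 0.17 and 0.20 (adjusted p of 0.189 and 0.129). Ndufv2 was higher by 0.30 and 0.22 (adjusted p of 0.00241 and 0.024). In supernatant the Ndufs1 call was lost without replicate 1 of either line or macrophages replicate 1 or 2, and the Ndufv2 call without macrophages replicate 1 or 2 (adjusted p up to 0.0829 and 0.105). In the quinone module, Ndufs3 was higher by 0.28 in media (adjusted p = 0.000406) and Ndufs7 lower in supernatant (-0.29, adjusted p = 0.00406). The acyl carrier protein Ndufab1 was higher in the lines by 0.47 and 0.42. Of the 9 peripheral accessory subunits, 3 were higher in media, and 2 were higher and 1 lower in supernatant.

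Membrane-arm subunits went both ways, with 6 of 18 higher and 2 lower in media and 7 higher and 5 lower in supernatant. Besides Ndufa1 and Ndufs5, those lower in supernatant were Ndufa3 (-0.72, limma adjusted p = 1.65e-05), Ndufa13, known as GRIM-19 (-0.48, adjusted p = 0.00868), and Ndufb7 (-0.41, adjusted p = 0.00137). Of the assembly factors, 3 of 7 were higher and 1 lower in media, and 6 higher and 1 lower in supernatant. Their median difference was 0.317 in media and 0.819 in supernatant, against 0.005 and -0.033 over all genes.

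Several assembly factors moved with the replicate split of the lines in media, being lower in replicates 3 and 4. Ndufa4l2 moved in the opposite direction, being higher in replicates 3 and 4 by 1.83 in C57epi.1 and 0.97 in Bm12.4. Replicates 3 and 4 minus replicates 1 and 2 gave a median of -0.82 over the 7 factors in both C57epi.1 and Bm12.4, with 6 of 7 below 0 in each line. The membrane arm gave -0.03 and -0.08, and macrophages gave 0.03 for the factors in media and 0.06 in supernatant. In the same split, all 32 cell cycle genes were below 0 in both lines in media. Their part in the assembly factor values was not tested. Ndufaf4 differed by -1.40 and -1.95 between the replicate pairs of C57epi.1 and Bm12.4, Ndufaf6 by -0.88 and -1.44, and Ndufaf5, which hydroxylates Ndufs7, by -0.82 in each. Ndufaf2, a late factor of the peripheral arm, differed by -0.94 and -1.06.

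The comparison of lines with macrophages in media therefore depended on the replicates for these factors. Ndufaf4 gave 1.06 within replicates 1 and 2 (limma adjusted p = 6.39e-05) and -0.49 within replicates 3 and 4 (adjusted p = 0.0413), with 0.29 and no call over all arrays. Ndufaf2 gave 0.68 and -0.31, Ndufaf5 0.76 and -0.13, and Ndufaf6 1.57 and 0.34. Over all arrays, Ndufaf6 was higher in the lines by 0.96 (adjusted p = 0.00449, with overlapping arrays). Ndufa4 and Ndufaf7 gave values close to each other in both pairs of replicates, at 2.53 and 2.29 and at 1.75 and 1.55. In supernatant the cell cycle genes differed less between replicates. The higher levels in the lines of Ndufaf4 (0.92, limma adjusted p = 0.037), Ndufaf6 (0.82, adjusted p = 0.0134), Ndufaf5 (0.71, adjusted p = 0.00147) and Ndufaf2 (0.60, adjusted p = 0.0214) were all called there. Replicates 3 and 4 still lay below replicates 1 and 2 for these factors in both lines in supernatant. In C57epi.1 and Bm12.4, Ndufaf4 differed by -0.40 and -0.74, and Ndufaf6 by -0.21 and -0.62. Ndufaf2 differed by -0.04 and -0.40, and Ndufaf5 by -0.08 and -0.17. Macrophages gave 0.06, 0.52, 0.02 and 0.06 for Ndufaf4, Ndufaf6, Ndufaf2 and Ndufaf5. Without macrophages replicate 2 the adjusted p of Ndufaf6 was 0.0574, and Ndufaf4 lost its call in 7 fits (up to 0.0812), those without any macrophage array, Bm12.4 replicate 1 or 2 or C57epi.1 replicate 1. Ndufaf2 lost its call without macrophages replicate 2 or 4 (up to 0.056), and Ndufaf4 with quantile normalization (0.80, adjusted p = 0.0718).

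Ndufaf1, needed to build the membrane arm, stood apart from those factors. It read 8.44, 8.42, 8.09 and 8.38 in C57epi.1 in media, 8.80, 8.68, 8.39 and 8.27 in Bm12.4 and 7.56, 7.53, 7.59 and 7.63 in macrophages. Every line array exceeded every macrophage array, by 0.86 on average (SE 0.089, limma adjusted p = 1.92e-08), and by 0.88 in supernatant (adjusted p = 1.13e-08).

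The last question was how the lines differed from each other. In media, 4 members were higher and 9 lower in C57epi.1 than in Bm12.4, and in supernatant 6 were higher and 10 lower. Of all genes, 12.0% were called higher and 12.5% lower in media, and 14.3% and 15.6% in supernatant. The C57epi.1 arrays lay all above the Bm12.4 arrays for 2 members in media (9.30% of all genes) and 10 in supernatant (15.6%), and all below for 9 (9.93%) and 10 (17.3%). The members' medians were -0.075 and -0.060, against -0.008 and 0.000 over all genes. With arrays centred on their median the supernatant counts were 9 higher and 9 lower, and with quantile normalization 8 higher and 12 lower. These comparisons also shared no arrays, only the estimate of the spread. In both, 8 members were lower (88.9% of those in media, 80% of those in supernatant) and 3 higher (75% and 50%). These shares were not made over all genes either.

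Ndufa6, an LYR-motif subunit of the peripheral arm that docks the acyl carrier protein, had the largest difference. It read 7.76, 7.52, 8.40 and 8.20 in C57epi.1 in media and 8.59, 8.71, 9.56 and 9.41 in Bm12.4. In supernatant the lines read 7.53, 7.78, 7.82 and 7.80, and 8.55, 9.04, 9.26 and 9.24. Replicates 3 and 4 were higher than 1 and 2 in both lines in media, yet no C57epi.1 array reached a Bm12.4 array. The differences were -1.10 in media (SE 0.199, 2.14-fold, limma adjusted p = 0.00017) and -1.29 in supernatant (2.45-fold, adjusted p = 1.87e-05), with -1.01 and -1.19 within the replicate pairs in media. Macrophages read 8.74 to 8.90 in media, above all C57epi.1 arrays and within the Bm12.4 range.

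The other members lower in C57epi.1 in both conditions were Ndufa1, Ndufa2, Ndufa4, Ndufa8, Ndufb9, Ndufb11 and Ndufs7. Ndufa1 differed by -0.77 and -0.59 (limma adjusted p of 1.23e-05 and 0.000267), Ndufb9 by -0.61 and -0.62 (adjusted p of 0.000152 and 0.000105) and Ndufa4 by -0.60 and -0.64 (adjusted p of 0.000645 and 0.000272). Ndufa8, an intermembrane-space subunit, read 9.43, 9.48, 9.42 and 9.48 in C57epi.1 in media and 10.10, 9.98, 9.95 and 9.93 in Bm12.4. In supernatant it read 9.18, 9.26, 9.25 and 9.27 and 9.74, 9.92, 9.68 and 9.95. Its groups were tight and separate, with differences of -0.54 and -0.58 (SE 0.081, adjusted p = 4.6e-06 in supernatant). Ndufs5 read 8.56, 8.64, 8.20 and 8.33 in C57epi.1 and 8.92, 9.13, 9.14 and 8.79 in Bm12.4 in media, a difference of -0.56 (adjusted p = 0.000211) without overlap, but was not called in supernatant. Ndufs7, the iron-sulfur subunit nearest ubiquinone, differed by -0.26 in media (adjusted p = 0.0482) and by -0.42 in supernatant (adjusted p = 0.00102). Its media call was lost in 19 of the 24 fits that leave out an array (adjusted p up to 0.165). Those fits left out any supernatant array but macrophages replicate 4, any media array of C57epi.1 but replicate 1, Bm12.4 media replicate 1 or 2, or any media array of macrophages but replicate 2.

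Higher in C57epi.1 in both conditions were Ndufaf7, Ndufa10 and Ndufv2. Ndufaf7 was higher by 0.64 in media (limma adjusted p = 0.00241), by 0.24 within replicates 1 and 2 and 1.03 within replicates 3 and 4, and by 0.60 in supernatant (adjusted p = 0.00298). Ndufa10, a membrane-arm subunit with a nucleoside kinase fold, read 10.61, 10.67, 10.60 and 10.56 in C57epi.1 in media and 10.25, 10.43, 10.30 and 10.24 in Bm12.4. In supernatant it read 10.53, 10.75, 10.58 and 10.52 and 10.29, 10.28, 10.08 and 10.25. The lines did not overlap, and the differences were small but called, at 0.30 (SE 0.069, adjusted p = 0.00163) and 0.37 (adjusted p = 0.000171). Ndufv2 was higher by 0.31 and 0.28 (adjusted p of 0.012 and 0.02), with the call lost in media without Bm12.4 replicate 4 (0.0607) and in supernatant without replicate 1 of either line (up to 0.0936).

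In a single condition, Ndufv3 was higher in C57epi.1 in media (0.65, limma adjusted p = 0.0331, overlapping arrays), with the call lost when Bm12.4 replicate 1 or 2 or C57epi.1 replicate 3 or 4 was left out (up to 0.132). In a fit on the arrays of both lines in media alone, its adjusted p was 0.131 and that of Ndufv2 was 0.103. In supernatant, Ndufaf4 (1.20, adjusted p = 0.0306), Ndufs6 (0.47, adjusted p = 0.0132) and Ndufs1 (0.42, adjusted p = 0.0331) were higher. Leaving out Bm12.4 replicate 2, 3 or 4 ended both the Ndufaf4 and the Ndufs1 call, as did replicate 1 or 2 of C57epi.1 for Ndufaf4 (adjusted p up to 0.102) and its replicate 1, 3 or 4 for Ndufs1 (up to 0.101).

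Ndufa4l2, a relative of Ndufa4 known to be induced by hypoxia, was called in no comparison. It read 6.21, 5.41, 7.61 and 7.68 in C57epi.1 in media and 5.04, 6.47, 6.85 and 7.06 in supernatant, the widest scatter among these groups. Bm12.4 read 5.55, 4.87, 6.18 and 6.18 and then 5.21, 5.09, 5.11 and 5.67. Macrophages read 5.50, 5.36, 5.78 and 5.93 and then 6.32, 6.16, 5.80 and 5.65. The treatment differences were -0.37, -0.43 and 0.34 in C57epi.1, Bm12.4 and macrophages. C57epi.1 minus Bm12.4 was 1.03 in media (limma adjusted p = 0.0945) and 1.08 in supernatant (adjusted p = 0.0659), and both were called with the replicate number as a block (adjusted p of 0.0439 and 0.0281). The media block also called Ndufa7 (adjusted p = 0.0394) and Ndufab1 (adjusted p = 0.0285), and the supernatant block Ndufaf5 (adjusted p = 0.0367) and Ndufs8 (adjusted p = 0.0123).

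The remaining respiratory complexes were set beside complex I for the response to supernatant. In C57epi.1, 12 of 17 ATP synthase genes, 3 of 9 complex III genes, 3 of 4 complex II genes and 4 of 17 complex IV genes fell, and 1 complex IV gene rose. In Bm12.4 the falls numbered 3, 1, 0 and 1, and in macrophages 5, 2, 2 and 1. The median differences in C57epi.1 were -0.342 for ATP synthase, -0.225 for complex III, -0.428 for complex II and -0.157 for complex IV, beside -0.210 for the complex I members. These sets are unlike in make-up, as the complex I members include the assembly factors, Ndufa4 and Ndufa4l2. The complex IV list holds Cox4i2, Cox6b2, Cox7b2, Cox8b and Cox8c, whose differences in C57epi.1 lay between -0.02 and 0.04. Uqcr11 of complex III differed by -0.77, -0.74 and -0.44 and Atp5k of ATP synthase by -0.75, -0.47 and -0.41, each called lower in all 3 kinds of cell. No complex IV gene was called lower in all 3. Cox6a2, a muscle-type subunit of complex IV, was the gene that rose in C57epi.1 (1.15, limma adjusted p = 0.000202). The mitochondrially encoded subunit ND3, the one such complex I gene measured, fell by 1.36, 0.68 and 0.86 on the log2 scale (adjusted p of 5.21e-06, 0.0167 and 0.00126).

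**Figure D5:**
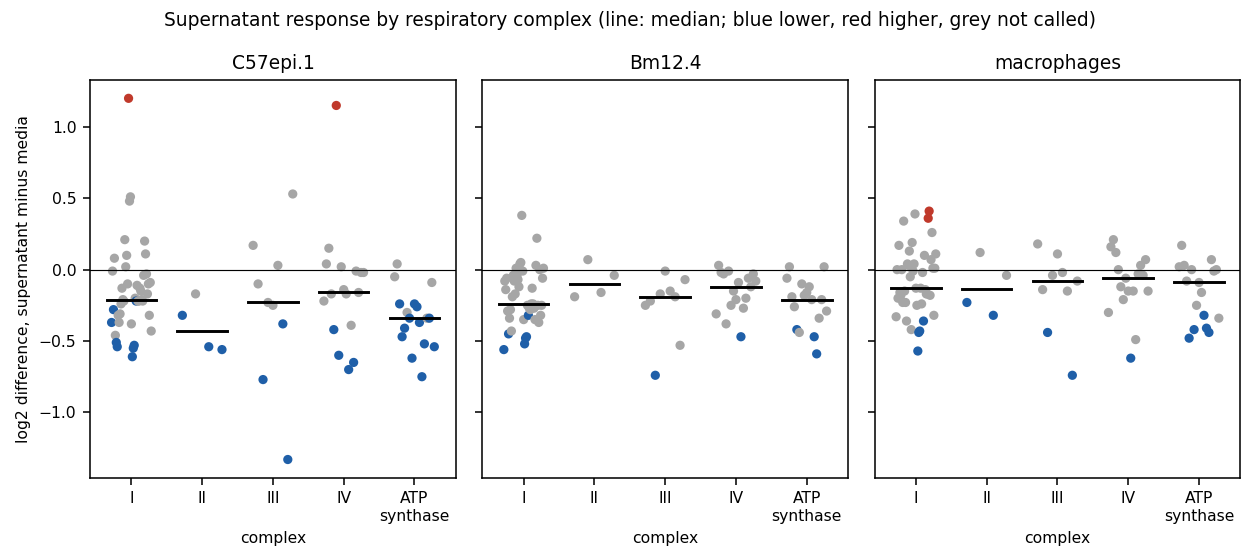
Log2 difference between inflammatory supernatant and media for each gene (point) of complexes I to IV and ATP synthase in C57epi.1, Bm12.4 and macrophages, with the median of each complex as a line. The complex I medians of -0.210, -0.235 and -0.132 lie below 0 in all 3 kinds of cell, as do those of the other complexes. The complex I points are all 43 members, with the assembly factors, Ndufa4 and Ndufa4l2 included.

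Genes that help to build complex I or to set mitochondrial gene expression were read in the same fit. Of 11 other complex I assembly genes, 3 fell and 1 rose in C57epi.1 on treatment, and none was called in Bm12.4 or macrophages. Dmac1, a membrane-arm assembly factor, was lower in C57epi.1 than in Bm12.4 by 1.99 in media and by 2.32 in supernatant. Tfb2m, a mitochondrial transcription factor, was the only 1 of 13 regulators of mitochondrial biogenesis to fall in all 3 kinds of cell, by 0.70, 0.76 and 0.68 on the log2 scale (limma adjusted p of 0.00185, 0.00201 and 0.00336). Myc rose in C57epi.1 (1.18, adjusted p = 0.00469). The lines were higher than macrophages in Myc, Tfam and Nrf1, by 3.22, 1.38 and 0.40 in media, and lower in Ppargc1b and Esrra, with differences of -0.87 and -0.21. Ppargc1a was called in no comparison. Cell division differed between the same groups. Of 32 cell cycle genes, 28 were higher in the lines in media and 11 fell in macrophages on treatment, among them Mki67 (-1.45, limma adjusted p = 0.0239). Within replicates 1 and 2, the median treatment difference of the 32 genes was -0.457 in C57epi.1 and -0.322 in Bm12.4, with 4 and 1 called lower. Within replicates 3 and 4 it was 0.552 and 1.438, with 11 and 30 called higher. Macrophages gave -0.787 and -1.178 in the 2 replicate pairs. The part of cell division in the complex I differences was not tested.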

How the data were processed

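Total RNA of 24 samples was hybridised to 1-colour Affymetrix whole-transcript arrays. The deposited values are log2 RMA expression values per probe set, made by the authors with GCOS and Partek 6.2 per the submitters' processing notes; the genome build and the order of the steps were not given in the sources used. No detection p-values were used, so a low value cannot be told from background, and 4 arrays per group limit the precision. Of 28853 probe sets, 21789 carried 1 gene symbol, 1621 several and 5443 none; the probe set of highest mean was kept for each of 19938 genes, and all 43 members matched RefSeq by gene ID. Group means over the 24 arrays were fitted with limma 3.58.1 in R 4.3.3 (lmFit and eBayes, 18 residual degrees of freedom), 9 contrasts were tested, and genes were called at a Benjamini-Hochberg adjusted p under 0.05 over all genes. The method was tested on simulated data. Named in each comparison were called core subunits, up to 5 called rises and 5 called falls by size, Ndufa4 and Ndufa4l2; other members were named after their values were seen. The members and gene lists were chosen with earlier results of these data known. Alternatives were quantile normalization, centring, the mean of probe sets, a filter at a mean of 5, a trended robust variance, only the arrays compared, a replicate block, each pair of replicates, and leaving out each array. Same-numbered arrays deviated together (every correlation over 0.1) for Bm12.4 treatment (0.23 to 0.68) and for the lines in media (0.51 to 0.63); the pairing comes from the replicate numbers in the sample titles.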

Additional observations from a re-analysis of the deposited data

Results flagged for a closer look

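Among the named members, 102 groups of 4 arrays were checked for an array far from the others, and 5 had such an array, where chance gives about 5% of groups. Ndufa3 read 9.72 on macrophages supernatant replicate 4, against 9.37 to 9.42 on the others. Ndufa4 read 11.68 on Bm12.4 media replicate 4, against 11.88 to 11.90. Ndufa6 read 7.53 on C57epi.1 supernatant replicate 1, against 7.78 to 7.82. Ndufaf3 read 6.59 on Bm12.4 media replicate 1, against 7.0 to 7.03. Ndufaf4 read 7.14 on macrophages media replicate 1, against 6.91 to 6.94. The response of Ndufs3 to supernatant differed between the lines and macrophages, with a difference of -0.36 (log2, limma adjusted p = 0.00852).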

How the results depend on the processing

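Of the named members' calls made over all arrays, none changed direction in any alternative run. Ndufaf4 in the lines minus macrophages in media, not called over all arrays, was called higher within replicates 1 and 2 (1.06) and lower within replicates 3 and 4 (-0.49). Numbers of members called moved by over 1.5 times as follows. For C57epi.1 treatment (9 called) they were 17 with quantile normalization, 5 with centred arrays and 14 within replicates 3 and 4, and leaving out an array gave 5 to 11, the lowest without C57epi.1 supernatant replicate 3. For Bm12.4 treatment (6) they were 2 in a fit on those arrays alone and 17 within replicates 1 and 2, with 5 to 7 on leaving out an array. For macrophages (6) they were 3 with centred arrays and 4 to 7 on leaving out an array. For the response of the lines minus that of macrophages (1) they were 2 with quantile normalization, 4 within replicates 3 and 4, and 1 to 3 on leaving out an array. For the response of C57epi.1 minus that of Bm12.4 (0) they were 1 within replicates 1 and 2, 1 within replicates 3 and 4, and 0 throughout on leaving out an array. On leaving out an array, the other 4 counts ranged over 20 to 23 (lines minus macrophages in media), 20 to 28 (in supernatant), 11 to 16 (C57epi.1 minus Bm12.4 in media) and 13 to 18 (in supernatant). The cause of these changes was not tested, except that fewer arrays entered the fits that leave arrays out. With the replicate number as a block the 9 counts were 12, 6, 7, 22, 29, 16, 19, 1 and 0, with 12 calls gained and 0 lost. Of the 100 calls made over all members and comparisons, 72 held in all 24 fits that leave out an array, 60 held both within replicates 1 and 2 and within replicates 3 and 4, and 0 changed sign there.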

Other observations

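Other mitochondrial gene groups did not all move with complex I. Of 77 mitochondrial ribosome genes, 42 were higher in the lines than in macrophages in media and 3 lower (median 0.334, log2), and in supernatant 43 were higher and 5 lower (median 0.348), as called by limma. Mrpl13, a protein of the large subunit, was higher by 2.04 in media (adjusted p = 2.58e-12). On treatment, 11 of these genes rose and 8 fell in C57epi.1 (median 0.10), with Mrps18b at 0.96 (adjusted p = 0.00931) and Mrpl34 at -0.90 (adjusted p = 1.26e-05). Bm12.4 had 3 rises and 2 falls, and macrophages 5 rises and 7 falls. These medians changed sign between the replicate pairs. Within replicates 1 and 2, 7 were called higher and 5 lower in C57epi.1 (median -0.075), 3 and 18 in Bm12.4 (median -0.225) and 2 and 6 in macrophages (median -0.080). Within replicates 3 and 4 it was 29 and 6 (median 0.250), 18 and 0 (median 0.150) and 8 and 3 (median 0.085).

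Of 14 enzymes of the citrate cycle and its entry, 8 were higher and 1 lower in the lines than in macrophages in both conditions. Suclg2, the GTP-forming subunit of succinyl-CoA ligase, was higher by 2.76 in media and 3.27 in supernatant (limma adjusted p of 2.76e-17 and 9.93e-19). Fh1, fumarase, fell on treatment in C57epi.1, Bm12.4 and macrophages, with differences of -0.59, -0.49 and -0.70 (adjusted p of 0.0036, 0.0333 and 0.000978). Of 15 hypoxia target genes, 6 were higher and 1 lower in C57epi.1 than in Bm12.4 in media, and 8 higher and 2 lower in supernatant. Pdk1, a kinase that restrains pyruvate dehydrogenase, was the gene lower in media (-2.90, adjusted p = 4.88e-12).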
